A study of Mus musculus and Rattus norvegicus with 32 samples.

Results

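The cytosolic ribosomal protein genes were followed in hearts and cardiomyocytes with altered METTL5. Members were all genes whose symbol is Rpl or Rps followed by a number and an optional letter, together with Rpsa, Rplp0, Rplp1, Rplp2, Rps4x and Rps27l. Pseudogene rows with symbols ending in -ps, the S6 kinases and the mitochondrial ribosomal proteins were not members. The rule took 83 of 55487 genes in each mouse table, 32 of the small and 51 of the large subunit, and 85 of 32883 genes in the rat table, 32 of the small and 53 of the large subunit. The rat rows carried 77 symbols, because Rpl21, Rpl32, Rpl7a, Rps10, Rps27a and Rps4x each had more than 1 row. No rat row had the symbol Rps14, Rps19, Rps26 or Rpl22.

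RNA-seq counts were available for 4 comparisons, each of 4 against 4 libraries. The first set whole-body METTL5-KO hearts against Ctrl hearts at 1 month in C57BL/6 mice. The second set METTL5-cKO hearts against Ctrl hearts at 3 months, in mice in which Cre under the αMHC (Myh6) promoter removes floxed exons 2, 3 and 4 of Mettl5 in cardiomyocytes. The third set METTL5-cKO against Ctrl hearts, also labelled 3 months, 4 weeks after transverse aortic constriction (TAC), a surgical narrowing of the aorta that loads the left ventricle. The fourth set neonatal rat ventricular cardiomyocytes (NRVMs) from postnatal day 2 Sprague Dawley rats, infected with an adenovirus carrying human METTL5 (AdMETTL5), against NRVMs infected with a GFP adenovirus (AdGFP), all under 20 μM phenylephrine (PE) for 24 h. The Cre acts in cardiomyocytes, whereas the heart RNA came from all cell types of the tissue, so the non-myocytes of METTL5-cKO hearts keep the gene. All NRVMs of both groups received PE and a virus, and no untreated NRVMs were compared.

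Ribosomal proteins assemble with ribosomal RNA into the small subunit, which decodes the message, and the large subunit, which forms the peptide bond. METTL5 with its partner TRMT112 methylates an adenosine of 18S rRNA, the RNA of the small subunit. Messages of ribosomal proteins typically begin with a C followed by a run of pyrimidines, the terminal oligopyrimidine (TOP) motif, through which mTORC1 and LARP1 control their translation together. Nearly all members are expressed in every cell. Rpl3l, a paralog of Rpl3, is the best known exception, since it is confined to heart and skeletal muscle, where it takes the place of Rpl3 in the large subunit of mature fibres. Rpl3 falls as muscle matures and is known to return at the expense of Rpl3l when muscle grows or is injured.

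Libraries held 14324700 to 21804907 counts. In NRVMs depth separated the groups, with 17344430 to 18085339 counts in AdGFP and 14324700 to 14642431 in AdMETTL5. Members took 0.615% to 1.34% of all counts in hearts and 2.198% to 2.372% in NRVMs. One library stood apart, Ctrl library 1 at 1 month, in which members took 1.34% of counts, and medians below are also given without it. The Mettl5 count covers the whole gene and did not separate the genotypes. It was 5.12 and 5.97 CPM (counts scaled to a common library size) in Ctrl and METTL5-KO at 1 month, 7.36 and 6.51 CPM in Ctrl and METTL5-cKO at 3 months and 6.75 and 6.59 CPM after TAC, with adjusted p of 0.973, 0.884 and 0.874. In these counts the groups therefore rest on the labels. The paper reports that reads over the floxed exons were nearly absent from METTL5-cKO hearts. A count of the whole gene does not resolve those exons. The adenovirus carries the human sequence, and rat Mettl5 was 17.03 CPM in AdGFP and 21.2 CPM in AdMETTL5, a log2 fold change of 0.32 with an adjusted p of 0.00295.

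The start of these messages is shown because the TOP motif is the feature that ribosomal protein genes share outside their coding sequence. RefSeq (GRCm38.p6) held a transcription start for 61 of the 83 mouse members, with 73 starts in all. Of these, 14 starts (19.2%) began exactly with a C and 4 further C or T, against 2.51% of the 32851 starts of all genes. A run of this kind, read on the strand of the gene, lay between base -10 and base 30 of the start in 75.3% of member starts and 43.5% of all starts. In the 30-base windows below, 10 bases lie before the annotated start and 20 from it on, and capitals mark the run that begins at the start. The first 6 are among the members with such a run, from both subunits, and Rpl10 and Rpl3l are shown because they changed after TAC and have no run at the annotated start.
Rps6, chr4:86857348-86857377, minus strand: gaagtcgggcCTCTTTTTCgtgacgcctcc
Rps10, chr17:27635225-27635254, minus strand: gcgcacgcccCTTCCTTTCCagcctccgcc
Rps18, chr17:33955646-33955675, minus strand: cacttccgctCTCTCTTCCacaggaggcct
Rpl15, chr14:18270967-18270996, minus strand: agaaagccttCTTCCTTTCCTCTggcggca
Rpl28, chr7:4792955-4792984, plus strand: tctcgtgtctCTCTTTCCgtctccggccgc
Rpl35, chr2:39005112-39005141, minus strand: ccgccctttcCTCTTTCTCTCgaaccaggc
Rpl10, chrX:74270806-74270835, plus strand: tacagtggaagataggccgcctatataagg
Rpl3l, chr17:24727816-24727845, plus strand: ttctagctctgtcatttgacctctggtgcc
A window without the run says only that these letters are not at the annotated start.

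The 100 bases before the start of Rpl3l are shown because this muscle-restricted member had the largest absolute fold change after TAC. Its call there was lost in 6 of 8 fits with 1 library left out. Capitals mark the motif CANNTG, the E-box, which reads the same on both strands and is the sequence bound by basic helix-loop-helix factors. It was found in 100 bases before 16.4% of member starts and 34.4% of all starts, and 2 copies lay before Rpl3l.
Rpl3l upstream, chr17:24727726-24727825, plus strand: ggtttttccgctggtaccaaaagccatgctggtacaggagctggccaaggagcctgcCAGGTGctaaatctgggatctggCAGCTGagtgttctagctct

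Members with a close paralog can share reads, so the start of the coding sequence (bases 1 to 60, GENCODE annotation of GRCm38) is shown for the pairs Rpl3 and Rpl3l and Rps27 and Rps27l. Capitals mark the bases that differ within the pair.
Rpl3: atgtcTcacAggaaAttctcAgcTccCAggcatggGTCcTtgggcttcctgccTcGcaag
Rpl3l: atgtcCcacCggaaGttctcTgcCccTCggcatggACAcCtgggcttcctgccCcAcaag
Rps27: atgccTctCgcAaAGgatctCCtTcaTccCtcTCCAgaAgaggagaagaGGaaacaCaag
Rps27l: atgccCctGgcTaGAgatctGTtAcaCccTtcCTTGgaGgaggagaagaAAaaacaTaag
Over the whole coding sequence Rpl3 and Rpl3l shared 74.8% of aligned bases, and their longest identical stretch was 22 bases. Rps27 and Rps27l shared 76.2%, with a longest identical stretch of 11 bases. Rpl10 and its testis paralog Rpl10l shared 84.7% and Rpl39 and Rpl39l 84.97%.

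Rpl3 lies at chr15:80077791-80091868 on the minus strand with 10 exons, and overlaps Syngr1 on the other strand. Rpl3l lies at chr17:24727820-24736143 on the plus strand with 10 exons and overlaps no other gene. Rpl10 lies at chrX:74270812-74273135. Of the 83 mouse members 80 are annotated as protein coding and 3 (Rpl6l, Rpl32l and Rps4l) as pseudogenes. Among the 83, 29 hold small nucleolar RNA genes within their bounds, and 27 overlap another gene. Processed pseudogene rows named after 63 of the members held counts equal to 19.2% to 21.0% of the members' own counts in hearts. They equalled 43.8% to 44.7% of the summed counts for Rpl10 plus its 6 pseudogene rows and 28.6% to 29.4% for Rpl3 plus its 2, whereas Rpl3l has none.

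Most members were expressed at similar levels once transcript length was taken into account. The median level per length was 134 CPM per kb in 1-month Ctrl hearts, 117 at 3 months and 130 after TAC, and 65, 66 and 65 of the 78 members with a length lay within 2-fold of it. Small subunit members had medians of 150, 124 and 135 CPM per kb and large subunit members 127, 114 and 127. Rps15, a small subunit protein near the decoding site, was the highest at 418, 370 and 428 CPM per kb. Rps20 (22.4, 17.5 and 19.7) and Rpl39 (35.9, 23.6 and 31.3) were the lowest of the tested members, the former against a listed transcript of 3706 nt. Rpl10l and Rpl39l, whose expression is known from testis, had 0 to 4 counts per library in hearts and did not pass the filter on low counts.

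**Figure D1:**
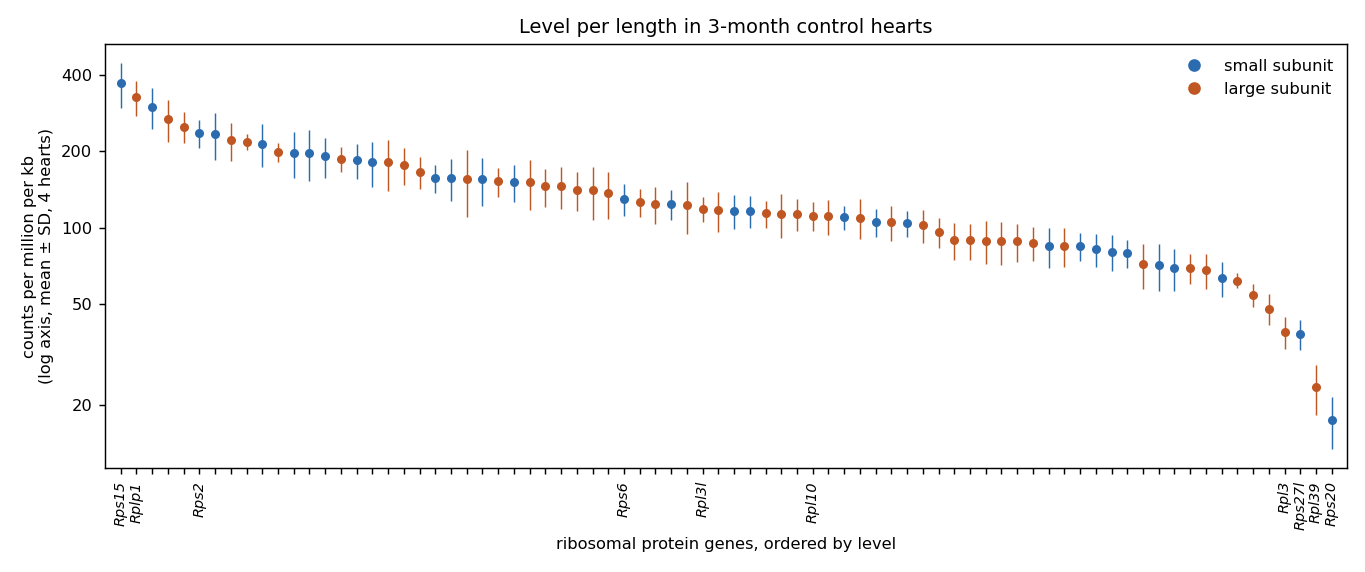
Level of each tested ribosomal protein gene in 3-month Ctrl hearts as CPM per kb of transcript (log axis, mean ± SD of 4 hearts), ordered from highest to lowest and coloured by subunit, with some genes named. Most genes lie within 2-fold of the median of 117 CPM per kb, with Rps15 at the top, Rpl3l near the middle and Rpl3 close to the lower end.

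Rpl3l was at the level of the other members in the adult heart. Per length it stood at 77.0 CPM per kb against 48.7 for Rpl3 in 1-month Ctrl hearts. At 3 months the levels were 119 CPM per kb for Rpl3l and 39.0 for Rpl3, and in Ctrl hearts after TAC they were 112 and 44.1. In METTL5-cKO hearts after TAC the order of the means was turned, with 55.0 CPM per kb for Rpl3l and 66.9 for Rpl3, though not in library 4, where Rpl3l held 60.7% of the pair's counts. The ages were sequenced as separate tables, so levels across them are given side by side without a test. In NRVMs Rpl3l had 0 counts in 7 libraries, which allows up to 3 counts in each, and 6 counts in 1 AdMETTL5 library, beside 792 ± 12.8 CPM of Rpl3 in AdGFP.

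**Figure D2:**
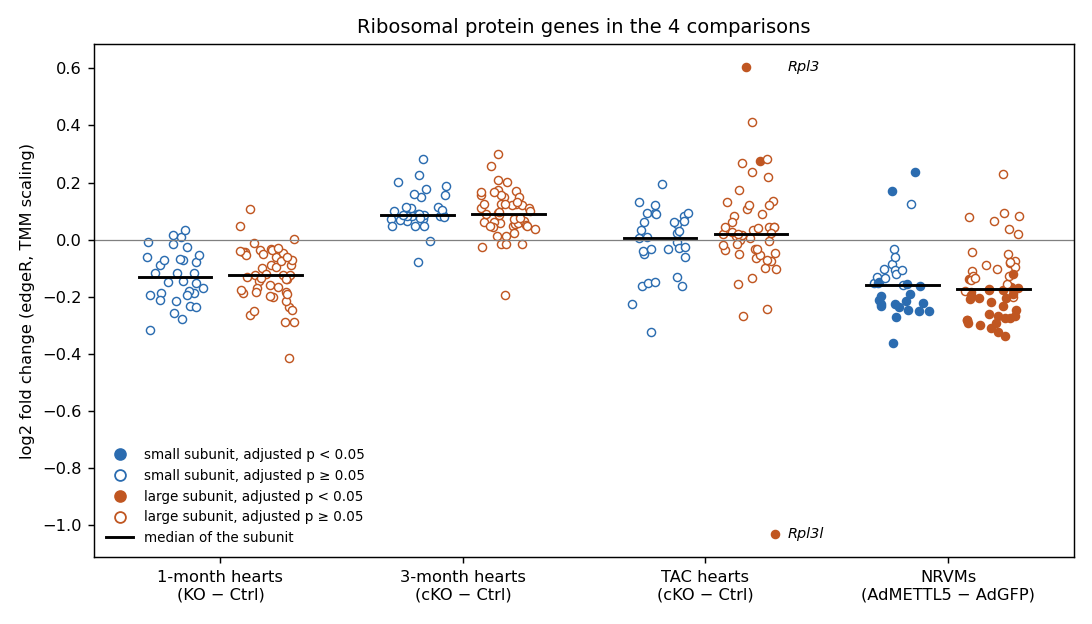
Log2 fold change of every tested ribosomal protein gene in the 4 comparisons (knockout minus Ctrl, or AdMETTL5 minus AdGFP), small and large subunit apart, with filled points for adjusted p under 0.05 and a bar at each median. No point is filled at 1 or 3 months, 3 are filled after TAC (Rpl3, Rpl3l and Rpl10), and 49 are filled in NRVMs, 47 of them below 0.

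In 1-month whole-body METTL5-KO hearts no member passed the test in either direction. The edgeR quasi-likelihood test on TMM-scaled counts called 0 of 81 tested members higher and 0 lower at an adjusted p under 0.05, against 0% and 0.00612% of the 16329 genes tested. At an unadjusted p under 0.05 the counts were 0 higher and 1 lower, beside 2.12% and 2.46% of all genes, and DESeq2 also called 0 members. The median log2 fold change (METTL5-KO minus Ctrl) was -0.13 for the small and -0.13 for the large subunit, beside -0.01 for all genes, and 6 of 81 members had a value above 0 beside 48.6% of all genes. Without Ctrl library 1 the medians were -0.032 and -0.004, and 37 of 81 members were above 0.

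The mean log2 CPM of small subunit members was 6.58 ± 0.213 (SD, n = 4) in Ctrl and 6.47 ± 0.0582 in METTL5-KO at 1 month. For the large subunit it was 6.43 ± 0.207 and 6.31 ± 0.0454. The Ctrl spread covered the KO values in both. Rps28, a small protein of the small subunit, had the largest fold change of that subunit at -0.32, with 74.7, 44.0, 55.5 and 40.9 CPM in Ctrl libraries and 43.5, 42.0, 42.2 and 45.02 CPM in METTL5-KO libraries. Ctrl library 1 was the highest, and the groups overlapped. Rpl32l, annotated as a pseudogene-type locus, had the largest of the large subunit at -0.41 (SE 0.169, adjusted p = 0.973), from 7.53, 5.51, 5.98 and 4.45 CPM to 4.03, 4.48, 4.28 and 4.86 CPM. Its groups overlapped too.

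Rps6, the small subunit protein that S6 kinases phosphorylate, was 132 ± 21.4 CPM in Ctrl and 130 ± 4.34 CPM in METTL5-KO at 1 month (log2 fold change -0.02). Rpl3 was 65.8 ± 13.7 and 61.6 ± 8.47 CPM (-0.10) and Rpl3l 106 ± 22.8 and 103 ± 11.2 CPM (-0.04), none past the test. Groups did not overlap for 1 member, Rps14, beside 3.01% of all genes. Among the 21 tested genes of the list of paralog pairs, Rps6, Rpl5, Rpl11, Rpsa and the stalk proteins, the values ran from -0.29 for Rpl39 to 0.10 for Rpl7l1.

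**Figure D3:**
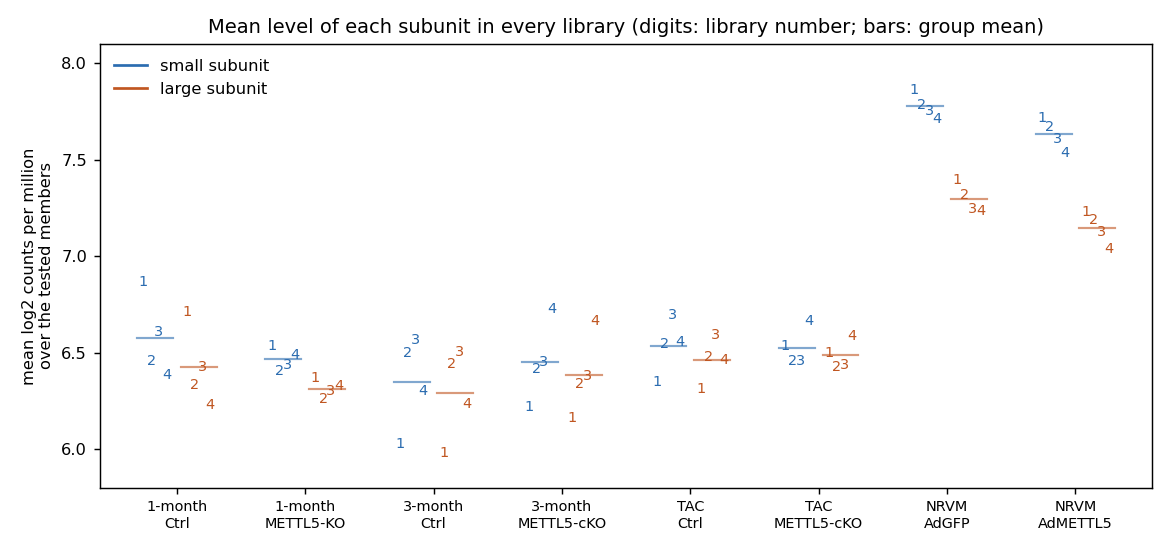
Mean log2 CPM over the tested small and large subunit members in every library, drawn as the library's number, with a bar at the group mean of 4 libraries. In hearts the groups overlap at each age and after TAC, and Ctrl library 1 at 1 month stands highest of its table (6.87 and 6.71). In NRVMs the AdMETTL5 means are lower under TMM scaling (7.63 and 7.14 against 7.78 and 7.30).

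In 3-month METTL5-cKO hearts again no member passed the test. edgeR called 0 of 81 higher and 0 lower, against 0.0488% and 0.0244% of the 16391 genes tested, and 0 members had an unadjusted p under 0.05, beside 3.62% higher and 3.43% lower of all genes. Groups did not overlap for 0 members, beside 4.23% of all genes. DESeq2 called 0 members too. The median log2 fold change was 0.09 for either subunit, beside 0.00 for all genes, and 30 of 32 small and 44 of 49 large subunit members were above 0, beside 50.3% of all genes. Leaving out 1 library at a time moved these medians between -0.01 and 0.16. Members above 0 numbered 42 of 81 without Ctrl library 1 and 35 of 81 without METTL5-cKO library 4. The sizes were small against the spread between libraries, since the mean log2 CPM was 6.35 ± 0.243 in Ctrl and 6.45 ± 0.210 in METTL5-cKO for the small subunit and 6.29 ± 0.237 and 6.39 ± 0.208 for the large.

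The members with the largest values at 3 months were Rpl3 and Rps27l. Rpl3 was 43.8, 54.6, 61.8 and 50.7 CPM in Ctrl and 53.4, 70.7, 61.3 and 73.9 CPM in METTL5-cKO, a log2 fold change of 0.30 (SE 0.134, adjusted p = 0.71). Rps27l, a p53-responsive paralog of Rps27, was 16.4, 22.2, 20.0 and 17.5 CPM in Ctrl and 19.2, 23.7, 22.4 and 27.3 CPM in METTL5-cKO (0.28, adjusted p = 0.731). Both overlapped between groups. Rpl3l was the member with the lowest value, at 152.7, 180.5, 176.8 and 143.7 CPM in Ctrl and 146.9, 132.4, 147.4 and 145.4 CPM in METTL5-cKO (-0.19, SE 0.0964, adjusted p = 0.76). In each METTL5-cKO library but library 2 it lay within the Ctrl range. The lowest and the highest member of the large subunit were thus the 2 paralogs of one pair. Rps6 was 114 ± 16.4 and 121 ± 16.5 CPM (0.09), Rps15 185 ± 37.2 and 194 ± 41.0 CPM (0.07), and Rpl22l1, the paralog of Rpl22, had a value of 0.28, none past the test.

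After TAC 3 large subunit members differed between METTL5-cKO and Ctrl hearts, while the medians of both subunits lay near 0. Rpl3 rose from 59.5 to 90.4 CPM, its muscle paralog Rpl3l fell from 154 to 75.6 CPM, and Rpl10, a late-joining protein that the large subunit needs before it can join the small one, rose from 93.7 to 113 CPM. edgeR called 2 of 81 members higher (2.47%) and 1 lower (1.23%), against 6.57% and 6.10% of the 16340 genes tested. Of the 32 small subunit members 0 were called, with 0 higher and 2 lower at an unadjusted p under 0.05 beside 15.2% and 15.8% of all genes, and DESeq2 called 0 of them as well. DESeq2 called 7 large subunit members higher and 1 lower, against 4.85% and 4.12% of all genes in that fit. These shares are over 30040 genes, taken without the filter on low counts, and so are not like those of edgeR. The median log2 fold change was 0.01 for the small and 0.02 for the large subunit, beside -0.004 for all genes, with 47 of 81 members above 0 beside 49.4% of all genes. Groups did not overlap for 8 of 81 members, 7 above and 1 below, beside 9.41% and 9.16% of all genes.

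Rpl3 was 54.3, 62, 62.7 and 59.1 CPM in TAC Ctrl hearts and 85.9, 93.1, 102.8 and 79.7 CPM in TAC METTL5-cKO hearts. Every METTL5-cKO library was above every Ctrl library. The log2 fold change was 0.60 (SE 0.0923, 95% interval 0.42 to 0.78, adjusted p = 0.00882), and the call held when any 1 library was left out and with the other scalings, filters and DESeq2, with adjusted p of 8.09e-08 to 0.0396. It did not reach a log2 fold change of 1.

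Rpl3l was 143.3, 157.2, 154.2 and 162.8 CPM in TAC Ctrl hearts and 57.8, 61.7, 59.7 and 123.4 CPM in TAC METTL5-cKO hearts. All METTL5-cKO libraries were below all Ctrl libraries, but library 4 lay closer to Ctrl than to the other 3 libraries of its group. The log2 fold change was -1.03 (SE 0.23, 95% interval -1.48 to -0.58, adjusted p = 0.0232). Without METTL5-cKO library 4 it was -1.36 with an adjusted p of 5.75e-05. The call was lost, at values between -1.02 and -0.92, without Ctrl library 2 (adjusted p = 0.0595), 3 (0.0568) or 4 (0.0696), and without METTL5-cKO library 1 (0.0597), 2 (0.0741) or 3 (0.0595). In RNA of whole hearts, fewer cells of a type and less RNA per cell cannot be told apart.

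Markers of cell types moved in the same hearts. The summed level of 8 cardiomyocyte markers was 41590 to 46160 CPM in Ctrl and 29410 to 39180 CPM in METTL5-cKO, with 3 of 8 (Myl2, Myl3 and Tnni3) called lower. The sum of 8 fibroblast markers was 578.5 to 766.7 CPM in Ctrl and 924.4 to 2987 CPM in METTL5-cKO, with 7 of 8 called higher, and 5 of 7 endothelial markers were called lower (sums of 612.4 to 728.5 and 445.6 to 566.3 CPM). Of 9 macrophage markers 2 (Adgre1 and Mrc1) were called higher, with sums of 181.1 to 249.7 CPM in Ctrl and 241.4 to 334.1 CPM in METTL5-cKO. Smooth muscle and pericyte sums were 538.4 to 578.7 CPM in Ctrl and 425.8 to 544.6 CPM in METTL5-cKO, with 0 of 6 called. Library 4, the METTL5-cKO library with the highest Rpl3l, also had the highest cardiomyocyte sum (39180 CPM) and the lowest fibroblast sum (924.4 CPM) of its group. Divided by the cardiomyocyte sum, a measure chosen after the values were seen, Rpl3l was 3.39, 3.47, 3.71 and 3.53 CPM per 1000 CPM of markers in Ctrl and 1.84, 2.1, 2.01 and 3.15 in METTL5-cKO. These did not overlap, with a log2 difference of -0.66 (exact permutation test, two-sided p = 0.0286, the smallest that 4 against 4 libraries allow). Because the measure was chosen after the values were seen, this p is no independent support. Library 4 (3.15) lay nearer to the lowest Ctrl value (3.39) than to the other METTL5-cKO libraries. The sum includes Myl2, Myl3 and Tnni3, themselves called lower, and is not a count of cells. The part of the other cell types in the Rpl3 values was not tested.

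Rpl10 was 87.1, 91.3, 101.8 and 94.8 CPM in TAC Ctrl hearts and 116.0, 116.1, 110.3 and 111.1 CPM in TAC METTL5-cKO hearts. The groups did not overlap, and the log2 fold change was 0.27 (SE 0.0699, 95% interval 0.14 to 0.41, adjusted p = 0.0344). With the counts of its pseudogene rows added the adjusted p was 0.0675. The call was also lost without Ctrl library 1 (adjusted p = 0.0668), 2 (0.0953) or 4 (0.0939), and without METTL5-cKO library 1 (0.0847), 2 (0.103) or 3 (0.0609), at log2 fold changes of 0.25 to 0.29.

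Further large subunit members lay just short of the threshold after TAC. Rpl12, a protein at the base of the ribosomal stalk, was 84.0 to 102 CPM in Ctrl and 107 to 121 CPM in METTL5-cKO (log2 fold change 0.27, adjusted p = 0.0533). Rpl10a was 63.7 to 75.7 and 81.8 to 85.3 CPM (0.24, 0.0555) and Rpl4 267 to 308 and 329 to 344 CPM (0.22, 0.0683). These 3 are named after their values were seen, and none overlapped between groups. Without METTL5-cKO library 4 the calls numbered 4 higher (Rpl3, Rpl10, Rpl12 and Rpl4) and 3 lower (Rpl3l, Rplp2 and Rps2), against 11.8% and 11.6% of all genes, and without Ctrl library 3 they numbered 5 higher and 0 lower, against 3.58% and 2.67%.

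Rps2, a small subunit protein at the entry of the mRNA channel, had the largest fold change of its subunit after TAC without passing the test. It was 244.8, 254.0, 302.5 and 263.1 CPM in Ctrl and 200.2, 197.4, 184.4 and 268.2 CPM in METTL5-cKO. METTL5-cKO library 4 lay inside the Ctrl range and the other 3 lay below it, and library 4 was the highest of its group here as for Rpl3l. The log2 fold change was -0.32 (SE 0.126, adjusted p = 0.114), and -0.45 with an adjusted p of 0.00745 without library 4. Rps2 lies at chr17:24718116-24721929 on the plus strand, and its end is 5890 nt from the start of Rpl3l. Rplp2, an acidic stalk protein that recruits elongation factors, was 114 to 138 CPM in Ctrl and 98.2 to 123 CPM in METTL5-cKO (-0.24, adjusted p = 0.108), and -0.30 with an adjusted p of 0.0339 without library 4.

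The other stalk proteins and the members with roles outside the ribosome did not pass the test after TAC. Rplp0, the base of the stalk, was 272 ± 15.2 CPM in Ctrl and 293 ± 14.7 CPM in METTL5-cKO (log2 fold change 0.11), and Rplp1 188 ± 12.6 and 204 ± 6.84 CPM (0.12). Rpl5 and Rpl11, which bind 5S rRNA and, when free, MDM2, were 99.0 ± 7.33 and 97.7 ± 2.85 CPM (-0.02) and 86.5 ± 9.03 and 83.5 ± 8.69 CPM (-0.05). Rps6 was 119 ± 7.94 and 117 ± 13.9 CPM (-0.02), with a 95% interval of -0.21 to 0.16. Rpsa, also known as a laminin receptor, was 176 ± 6.86 and 180 ± 7.35 CPM (0.03). With libraries scaled by their totals alone instead of TMM, the median of all genes moved from -0.004 to 0.143, and Rps6, Rpl5 and Rpl11, at 0.11, 0.13 and 0.09, moved with it across 0.

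**Figure D4:**
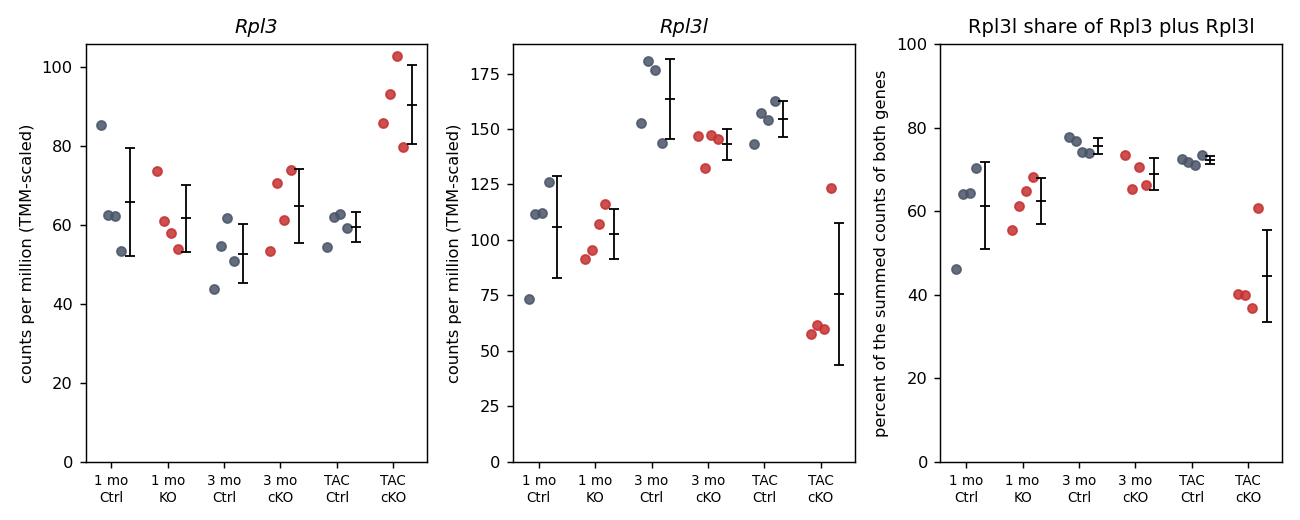
Rpl3 and Rpl3l in each heart library as CPM, and the share of Rpl3l in the counts of the pair, in Ctrl and knockout hearts of the 3 mouse comparisons, with the mean ± SD of 4 libraries beside the points. After TAC 3 of 4 METTL5-cKO libraries hold Rpl3 at 85.9 to 102.8 CPM and Rpl3l at 57.8 to 61.7 CPM, and library 4 lies between them and Ctrl.

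The balance within paralog pairs was followed as the log2 ratio of the paralog's counts to the parent's, in 23 ratios over the 4 comparisons, each with a two-sided exact permutation test whose smallest possible p is 0.0286. Rpl3l made up 72.5%, 71.7%, 71.1% and 73.4% of the pair's counts in TAC Ctrl hearts and 40.2%, 39.8%, 36.7% and 60.7% in TAC METTL5-cKO hearts. The mean log2 ratio went from 1.38 ± 0.0707 to -0.33 ± 0.647, a difference of -1.71 (exact permutation p = 0.0286, adjusted p = 0.094 over the 23 ratios). At 3 months without surgery Rpl3l made up 77.7%, 76.8%, 74.1% and 73.9% in Ctrl and 73.4%, 65.2%, 70.6% and 66.3% in METTL5-cKO. These groups did not overlap, with a difference of -0.49 (exact permutation p = 0.0286, adjusted p = 0.094). Marker sums were apart at 3 months too, at 42910 to 46270 CPM in Ctrl and 38490 to 42440 CPM in METTL5-cKO for cardiomyocytes and 117.8 to 148 and 151.4 to 194.9 CPM for macrophages. All 8 fibroblast markers had values above 0 and all 7 endothelial markers below 0, though 0 markers were called. Per 1000 CPM of cardiomyocyte markers, Rpl3l at 3 months was 3.67 ± 0.334 in Ctrl and 3.51 ± 0.0769 in METTL5-cKO, a log2 difference of -0.06 (exact permutation p = 0.429). At 1 month the shares were 46.2%, 64.2%, 64.3% and 70.3% in Ctrl and 55.4%, 61.1%, 64.9% and 68.2% in METTL5-KO, and the groups overlapped.

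2 further pairs did not overlap between the groups after TAC, both with an exact permutation p of 0.0286 and an adjusted p of 0.094. Rps27l made up 16.9% to 19.0% of the Rps27 pair in Ctrl and 19.2% to 21.4% in METTL5-cKO, a difference in log2 ratio of 0.23. Rpl7l1, a paralog of Rpl7 with a role in ribosome assembly, made up 13.7% to 15.9% and 12.5% to 13.5%, a difference of -0.19. None of the adjusted values over the ratios passed 0.05, which this design and number of ratios made hard to reach.

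The genotype effect after TAC and at 3 months without surgery was compared in 1 fit over the 16 libraries of both tables. No member differed in its effect at an adjusted p under 0.05, against 0.00586% of 17070 genes. The difference was -0.83 for Rpl3l (SE 0.261, adjusted p = 0.215), 0.32 for Rpl3 (adjusted p = 0.476) and -0.36 for Rps2 (adjusted p = 0.435). Without TAC METTL5-cKO library 4 the value for Rpl3l was -1.17 with an adjusted p of 0.000153, and it was then the single member called. The share of all genes called without library 4 is not at hand for this fit. In the TAC comparison alone, leaving out library 4 raised the genes called from 6.57% higher and 6.10% lower to 11.8% and 11.6%. In the other 15 left-out fits Rpl3l was not called. Surgery and sequencing table cannot be told apart in the fit over both tables.

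In NRVMs under PE, TMM-scaled levels of many ribosomal protein genes of both subunits were lower with AdMETTL5, each by a small amount. As a share of all counts, members took 2.29% ± 0.0701% in AdGFP and 2.26% ± 0.0665% in AdMETTL5, with overlap. TMM factors were 0.923 to 0.989 in AdGFP and 1.032 to 1.075 in AdMETTL5. edgeR called 18 of 32 small and 29 of 52 large subunit rows lower, 47 of 84 in all, against 25.7% of the 15041 genes tested, and 2 higher, against 27.1%. The median log2 fold change (AdMETTL5 minus AdGFP) was -0.16 for the small and -0.17 for the large subunit, beside -0.002 for all genes, and 74 of 84 rows were below 0 where 49.7% of all genes were above it. AdMETTL5 was below AdGFP in every library for 40 rows, beside 23.1% of all genes, and above for 0, beside 25.2%. Values among the called rows ran from -0.36 to -0.12 in the lower direction. Of all genes 52.8% passed the test in these cells. With rows of one symbol summed, 42 of 76 symbols were lower and 2 higher.

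Large subunit members led the list by adjusted p. Rpl10 was 578.7, 543.9, 557.4 and 525.5 CPM in AdGFP and 436.3, 453.5, 430.9 and 425.9 CPM in AdMETTL5, with no overlap and a log2 fold change of -0.34 (SE 0.0456, adjusted p = 6.75e-05). Rpl30 was 115, 111, 110.4 and 103 CPM in AdGFP and 91.3, 82.8, 86.3 and 91.7 CPM in AdMETTL5 (-0.32, adjusted p = 0.000223). Rpl10, called higher in METTL5-cKO hearts after TAC, was thus lower with added METTL5 in NRVMs, where 74 of 84 rows were below 0. Its call after TAC was lost in 6 of 8 fits with 1 library left out. Rpl5 (508 ± 12.4 to 422 ± 18.2 CPM, -0.27, adjusted p = 0.000377), Rpl7 (408 ± 15.2 to 337 ± 15.7 CPM, -0.28, 0.000428) and Rpl13a (527 ± 20.8 to 436 ± 16.6 CPM, -0.27, 0.000434), a protein also known for silencing inflammatory mRNAs when released, fell without overlap. Rpl3 fell from 792 ± 12.8 to 698 ± 28.9 CPM (-0.18, adjusted p = 0.00491), and Rpl11, the partner of Rpl5, from 500 ± 27.3 to 430 ± 34.2 CPM (-0.22, 0.0107).

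Of the small subunit, both rows of Rps4x fell, by 0.25 and by 0.24 on the log2 scale (adjusted p of 0.000337 and 0.000466). AdMETTL5 was below AdGFP in every library for both. Rps3a, a protein near the exit of the mRNA channel, fell from 558 ± 16.4 to 477 ± 7.57 CPM (adjusted p = 0.000712). The largest fold change of the subunit belonged to Rps27, at 497.3, 445.0, 441.9 and 408.4 CPM in AdGFP and 404.3, 369.8, 333.8 and 285.7 CPM in AdMETTL5 (-0.36, SE 0.0941, adjusted p = 0.00627). Its spread was wide in both groups, without overlap. Rps6 fell from 429 ± 21.4 to 383 ± 14.4 CPM (-0.16, adjusted p = 0.0155).

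The 2 members called higher in NRVMs were Rps27l and Rps2, the latter named after its values were seen. Rps27l was 75.4, 69.2, 65.1 and 64.0 CPM in AdGFP and 85.35, 80.01, 85 and 72.12 CPM in AdMETTL5, a log2 fold change of 0.24 (SE 0.0676, adjusted p = 0.0109) with overlapping groups. Rps2 was 394.7, 386.6, 357.9 and 374.5 CPM in AdGFP and 454.8, 435.9, 419.8 and 391.3 CPM in AdMETTL5 (0.17, SE 0.0543, adjusted p = 0.0201), with 1 AdMETTL5 library below the highest AdGFP library. The call of Rps2 was lost without AdGFP library 3 (adjusted p = 0.0629) or AdMETTL5 library 1 (0.0693) or 2 (0.0565). Rps27l and Rps27 thus moved in opposite directions, and Rps27l made up 12.8% to 13.5% of the pair in AdGFP and 17.4% to 20.3% in AdMETTL5 (difference in log2 ratio 0.61, exact permutation p = 0.0286, adjusted p = 0.094). The same test gave the same p for Rpl7l1, at 5.99% to 7.38% and 9.94% to 11.3% of the Rpl7 pair (0.69), and for Rpl10l, at 2.68% to 3.05% and 3.61% to 3.95% of the Rpl10 pair (0.43). Rpl10l itself was 16.3 ± 0.626 and 17.4 ± 0.969 CPM and did not pass the test, except under scaling by library totals (0.23, adjusted p = 0.0125).

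The stalk proteins did not pass the test in NRVMs under TMM scaling. Rplp0 was 1728 ± 61.0 and 1668 ± 43.6 CPM (log2 fold change -0.05), Rplp1 420 ± 30.7 and 426 ± 34.7 CPM (0.02) and Rplp2 82.3 ± 5.29 and 86.8 ± 6.40 CPM (0.08). Their 95% intervals ran from -0.14 to 0.04, from -0.11 to 0.15 and from -0.05 to 0.20. Under library totals Rplp1 (0.16, adjusted p = 0.0267) and Rplp2 (0.21, 0.00746) were called higher. Rpsa was 907 ± 31.3 and 842 ± 21.2 CPM (-0.11, adjusted p = 0.0659), with no overlap. Rpl36a, lower in every AdMETTL5 library (-0.13, adjusted p = 0.0671), and Rpl39l, near 1 CPM in both groups, did not pass either.

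**Figure D5:**
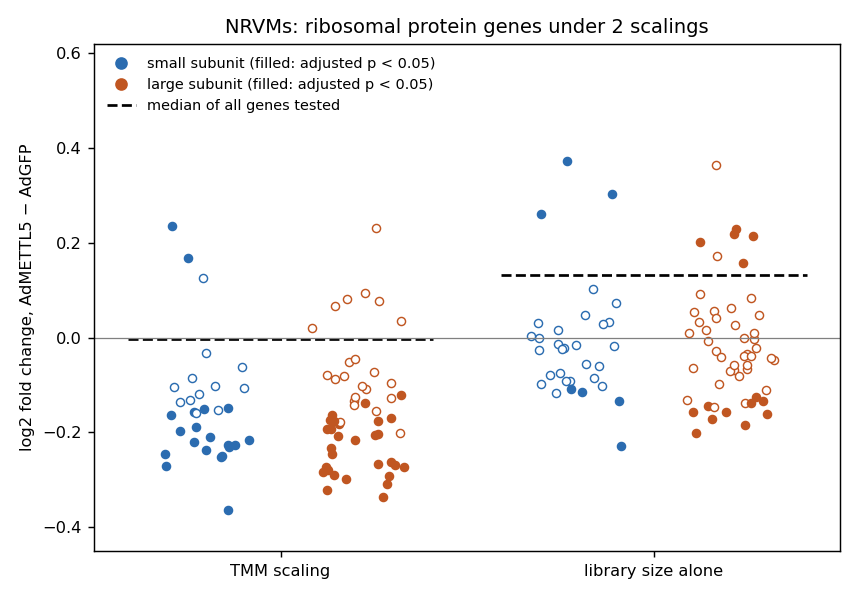
Log2 fold change of each ribosomal protein row in NRVMs (AdMETTL5 minus AdGFP) under TMM scaling and under scaling by library totals alone, with filled points for adjusted p under 0.05 and a dashed line at the median of all genes. The members shift up together with all genes, whose median moves from -0.002 to 0.133, and most lie below that median in either.

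The number of lower rows in NRVMs depended on the scaling. With libraries scaled by their totals alone, the median of all genes moved to 0.133, 5872 genes were higher and 2343 lower, and of the members 14 were lower and 8 higher, against 15.6% and 39.0% of all genes, at medians of -0.02 for the small and -0.04 for the large subunit. All 14 were among the 47 of TMM scaling, and they included Rpl10 (-0.20, adjusted p = 0.00188), Rpl30, Rpl5, Rpl7, Rpl13a, Rps27 and both rows of Rps4x. Members above 0 went from 10 to 31 of 84. Rps27l and Rps2 were higher under both (0.37 and 0.30 under library totals), whereas Rpl3, Rps3a (-0.09, adjusted p = 0.0968), Rps6 and Rpl11 did not pass under library totals, and Rplp0 and Rpsa turned from below to above 0. Leaving out 1 library at a time gave 36 to 53 lower rows.

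Cell type markers moved in the same NRVM libraries. All 8 cardiomyocyte markers were called lower in AdMETTL5, with a sum of 31530 to 40420 CPM in AdGFP and 13580 to 15380 CPM in AdMETTL5 and a median log2 fold change of -1.08. Of 7 fibroblast markers tested 6 were also lower, with sums of 11530 to 12140 and 9112 to 10040 CPM. Macrophage sums were 76.5 to 89.99 and 67.8 to 76.8 CPM, with 2 of 6 tested markers called lower and 3 above 0. Endothelial sums were 39.4 to 43.3 and 51.8 to 56.5 CPM, with Kdr alone called higher and 2 of 5 tested markers above 0. C1qa, C1qb, C1qc, Pecam1 and Emcn were not tested. Smooth muscle and pericyte sums were 3042 to 3787 and 3520 to 4004 CPM. Of its 6 markers Acta2 and Tagln were called higher and Pdgfrb lower. Of all genes 27.1% were called higher and 25.7% lower. The part of these cell types in the member values was not tested. In the 1-month and 3-month hearts 0 markers of these lists were called.

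Parts of the ribosome that the symbol rule does not take, such as Rack1, a scaffold on the head of the small subunit, numbered 8 genes in mouse, of which 0 were called in any heart comparison. In NRVMs 3 of 7 tested rows were called, against 52.8% of all genes. Rpl7l1 rose from 30.04 ± 2.602 to 39.9 ± 0.719 CPM (log2 fold change 0.41, adjusted p = 0.000176), while 1 row of Rack1 fell from 818 ± 27.0 to 732 ± 28.6 CPM (-0.16) and Rpl36al from 26.7 ± 0.642 to 23.8 ± 1.95 CPM (-0.17, adjusted p = 0.0436). The call of Rpl36al was lost under library totals (adjusted p = 0.663), with no filter on low counts (0.0544) and when any 1 library but AdMETTL5 library 1 was left out (0.0513 to 0.117).

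Other mRNAs known for a TOP motif, many of them translation factors, were counted beside the members. Of 17 such genes 4 were called higher and 0 lower in TAC METTL5-cKO hearts (Eef1a1, Eif4b, Eif3h and Npm1), against 6.57% and 6.10% of all genes, 15 of 17 were above 0 and the median log2 fold change was 0.22, beside 0.02 for the members. Eef1a1, the elongation factor that delivers tRNA, rose from 340 ± 33.5 to 503 ± 53.9 CPM (0.57, adjusted p = 0.0144), and Eif4b from 90.3 ± 3.82 to 118 ± 10.4 CPM (0.39, adjusted p = 0.0184). In NRVMs 4 of 14 were lower and 1 higher, against 25.7% and 27.1% of all genes. There 4 of 14 were above 0, and the median was -0.09, beside -0.17 for the members. Eef1g fell from 973 ± 49.1 to 772 ± 17.3 CPM (-0.34, adjusted p = 0.000115) and Tpt1 from 1293 ± 23.9 to 1086 ± 11.5 CPM (-0.25, 0.000331). At 1 and 3 months 0 of 17 were called. At 3 months 16 of 17 were above 0, with a median of 0.13 beside 0.09 for the members. This list was not followed with libraries left out. At 1 month 5 of 17 were above 0, with a median of -0.08 beside -0.13 for the members.

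Among 18 regulators of ribosomal protein expression in the mTORC1 and MYC pathways, Eif4ebp1 and Myc were called higher in TAC METTL5-cKO hearts and 0 lower, against 6.57% and 6.10% of all genes. Eif4ebp1, a translation repressor that mTORC1 inactivates, rose from 64.5 ± 5.22 to 94.0 ± 10.0 CPM (log2 fold change 0.54, adjusted p = 0.0127), and Myc, an activator of ribosome genes, from 3.07 ± 0.727 to 7.90 ± 2.12 CPM (1.36, adjusted p = 0.0125). In NRVMs 8 were higher and 1 lower with AdMETTL5, against 27.1% and 25.7% of all genes. Myc rose from 37.3 ± 1.34 to 65.0 ± 1.90 CPM (0.80, adjusted p = 1.02e-07) and Gabpa from 57.6 ± 3.37 to 79.0 ± 2.82 CPM (0.46, adjusted p = 1.89e-05), while Mlst8, a subunit of mTORC1, fell from 26.2 ± 0.938 to 20.5 ± 1.80 CPM (-0.36). Myc was thus higher both in METTL5-cKO hearts after TAC and in NRVMs with added METTL5. At 1 and 3 months 0 of 18 were called.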

How the data were processed

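Total RNA of 24 mouse heart and 8 NRVM libraries was sequenced on a BGI platform. Per the submitters' processing notes and the labels, reads were aligned with HISAT2 2.0.4 to GRCm38 or Rnor_6.0 and assembled with StringTie 2.1.4. The deposited values are expected counts per gene, estimated by StringTie and given by the authors as whole numbers, and the design had assumed read counts. The authors used DESeq2 1.4.5.

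Each table was tested apart with edgeR 4.0.16 (quasi-likelihood test, TMM, filterByExpr) in R 4.3.3 over all genes, with Benjamini-Hochberg adjustment and a call at an adjusted p under 0.05. CPM are counts divided by the TMM-scaled library total, per the usual definition, SE the standard error of a log2 fold change. Alternatives were DESeq2 1.42.0, other scalings and filters, pseudogene rows added, and each library left out. Ratios had 0.5 added to each count. The tests were tested on simulated data. Members and lists were chosen with earlier results of these data known.

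Named were, per comparison and subunit, the 5 called members with the smallest adjusted p and the largest fold change (where none was called, the smallest adjusted p), the paralog pairs, Rps6, Rpl5, Rpl11, Rpsa and the stalk proteins, the highest and lowest level per length, and 2 genes per direction of other lists. Some results under this rule are not reported here. Library numbers are the labels' at 1 month and otherwise the ascending order of the column numbers within a group. No source says that NRVM libraries came from separate cultures, so p-values measure the spread between these libraries. No 2 libraries agreed within sampling noise.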

Additional observations from a re-analysis of the deposited data

Results flagged for a closer look

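In 182 groups of 4 libraries 6 held a value that stood apart by Dixon's criterion for the gap to the nearest value over the group's range, which chance alone passes in about 1 of 20 groups. In TAC METTL5-cKO hearts Rpl3l in library 4 was 123.4 CPM against 57.75 to 61.7 in the others, and its share of the Rpl3 pair 60.7% against 36.7% to 40.2%. In 3-month METTL5-cKO hearts Rpl3l in library 2 was 132.4 CPM against 145.4 to 147.4. In 1-month Ctrl hearts library 1 had Rps6 at 163.4 CPM against 118.2 to 124.2, a share of Rpl36al of 34.3% against 41.6% to 42.7% in its pair, and a share of Rpl7l1 of 7.19% against 13.7% to 14.9%.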

How the results depend on the processing

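At 1 and 3 months 0 members were called under every alternative run. With libraries scaled by totals alone, members called after TAC numbered 10 higher, against 12.6% of all genes, at medians of 0.146 (small) and 0.159 (large) where the median of all genes was 0.143, and Rpl5 (0.127), Rpl11 (0.088), Rps6 (0.112), Rpl36al (0.043) and Rps15 (0.112) changed sign, as did Rpl3l at 1 month (0.032). In NRVMs this scaling gave 8 higher and 14 lower, medians of -0.023 and -0.039, with 31 of 84 members above 0 in place of 10, and sign changes among the named genes of Rplp0 (0.085), Rpl36a (0.000), Rpl22l1 (0.107) and Rpsa (0.029). After TAC, DESeq2 gave 7 higher, a minimum of 10 counts in every library 4, and added pseudogene rows 1, and with no filter on low counts 0 were lower (Rpl3l adjusted p = 0.0506). With an absolute log2 fold change over 1 also asked, 0 were higher after TAC, and 0 were higher and 0 lower in NRVMs. Leaving out 1 library gave 1 to 5 higher and 0 to 3 lower after TAC, 1 to 2 higher and 36 to 53 lower in NRVMs, and 0 to 1 members whose effect differed between TAC and 3 months. Medians then ran from -0.205 to -0.032 (small) and -0.187 to -0.004 (large) at 1 month, and from -0.005 to 0.164 and -0.010 to 0.157 at 3 months. Sign changes on leaving out 1 library were within -0.063 to 0.110 for Rps6, -0.183 to 0.052 for Rpl3l, -0.191 to 0.059 for Rpl3 and -0.032 to 0.186 for Rpl7l1 at 1 month, within -0.002 to 0.148 for Rps6 and -0.078 to 0.181 for Rps15 at 3 months, within -0.061 to 0.017 for Rpl5, -0.114 to 0.007 for Rpl11, -0.012 to 0.160 for Rpl22l1, -0.095 to 0.030 for Rps6 and -0.090 to 0.058 for Rps15 after TAC, and within -0.029 to 0.066 for Rplp1 in NRVMs. None of these was called in its comparison. The causes were not tested. With the replicate number of the 1-month labels as a block, 0 members were higher and 0 lower, at medians of -0.117 and -0.109. Same-numbered libraries correlated at -0.107 to 0.239 in their deviations and 2 of 4 METTL5-KO libraries correlated best with their own number, so the numbers were not taken to pair the samples. No paired analysis was possible because the columns of the other tables carry no replicate numbers that the labels tie to a sample. Pseudogene rows could not be added in rat, whose table has no such symbols. Members with few counts, Rpl10l and Rpl39l in hearts and Rpl3l in NRVMs, were beyond what this depth can compare.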

Other observations

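The neighbours of Rpl3l on chromosome 17 were looked at after the values were seen. Of 14 other genes annotated within 50 kb of Rpl3l, 6 were tested, and 1 was called lower and 0 higher in TAC METTL5-cKO hearts, against 6.10% and 6.57% of all genes. Rps2 ends 5890 nt before Rpl3l, and between them lies Ndufb10, a subunit of respiratory complex I, at chr17:24722060-24724478. Ndufb10 was 318 CPM in Ctrl and 239 CPM in METTL5-cKO (log2 fold change -0.41, adjusted p = 0.0491), between Rps2 (-0.32, adjusted p = 0.114) and Rpl3l (-1.03, adjusted p = 0.0232) in size. The tested genes outward of these had values of 0.13 (Tbl3), 0.07 (Gfer) and -0.01 (Zfp598) on the side of Rps2 and 0.23 (Msrb1) on the side of Rpl3l, none past the test. The values of Rpl3l and Rps2 were known when this window was chosen, so of these 3 genes only Ndufb10 is new. No other locus was looked at in this way, and most of the 14 genes were not tested, so no regional pattern can be read from these values.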
